A study of Mus musculus with 15 samples.

Results

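Livers of mice that had received both carbon tetrachloride (CCl4) and ethanol, called double injury here, were compared with livers of uninjured mice fed chow, across every gene of the deposited count tables. The double injury group was 3 libraries, numbered 18, 19 and 20 in the labels and named there CCl4+CCl4/EtOH, taken at day 20. The control group was 2 libraries, number 12 at day 20 (OO+OO/chow) and number 5 at day 23 (OO+chow), which the labels place in different substudies. These 5 libraries were chosen from 15 by their labels. All mice were adult C57BL/6 males, and RNA came from whole liver. CCl4 was injected into the peritoneum at 0.2 ml/kg, 2 times weekly, over 6 weeks, and the second phase used 0.5 of that dose. Ethanol of up to 25 g/kg per day then ran for 3 weeks through a tube into the stomach. The arms without CCl4 are labelled OO, a name the labels do not spell out, and library 5 carries OO for the first phase only. The ethanol arms are also labelled HFD and the controls chow. CCl4, ethanol, diet and tube feeding therefore cannot be told apart in this comparison. To show where a value also differed from one injury alone, OO with ethanol at day 20 (libraries 13, 14 and 15) and CCl4 with chow at day 20 (libraries 16 and 17) are set beside it. OO with ethanol at day 23 is 1 library, number 6, which is in no such test. Whether each library is 1 animal is not said in the labels, and the p-values cover variation among these libraries, which may be technical.

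Hepatocytes, the main cell of the liver, differ along the blood's path from portal vein to central vein. Cells around the central vein make glutamine and hold most cytochrome P450 enzyme, and one of these enzymes, CYP2E1, oxidises ethanol and turns CCl4 into a toxic radical. In mice, pulses of growth hormone acting through the factor STAT5B give male livers a set of male-biased transcripts, while female livers show the opposite set. After injury, hepatocytes can re-enter the cell cycle, stellate cells lay down matrix, and macrophages take up debris and lipid.

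Gene counts were between 11189327 and 21880629 in the 3 double injury libraries, and 14999801 and 12376433 in chow libraries 5 and 12. Levels below are in CPM, read counts scaled to a common library total, after TMM scaling, which corrects for library composition. They are compared between samples and not between genes. The share of listed reads that fell in genes was 49.8% to 53% in double injury and 46.8% and 45.1% in the controls. Hepatocyte markers summed to between 56237 and 67319 CPM in double injury and to 59634 and 74105 CPM in the controls. Of these 6 markers 3 were called lower, Apoa1, Cyp2e1 and Serpina1c, and Alb made up most of the sum. T cell markers stood at 1.42 CPM or less in all 5 libraries. Transcripts of other tissues were carried over in some libraries. The exocrine pancreas list summed to 231 CPM in control 12, 9.23 CPM in control 5 and at most 8.27 CPM in double injury. The skeletal muscle list summed to 607 CPM in double injury library 20 and to at most 0.802 CPM in the other 4 libraries. The muscle genes Acta1, Ckm and Myh4 and the other muscle genes were not called, with adjusted p of 0.211 or above. Between the 2 controls 507 of 14778 genes, 3.43%, differed more than 2-fold. Double injury pairs differed so in 387 to 792 genes, so by this measure the controls differed as replicates did. Calls still changed with the control used, as given below. Some named genes, among them Acss2, Apoa4, Cdc20, Elovl3, Fitm1, Glul, Pdgfra, Prom1 and Top2a, share exon bases with another annotated gene, and whether strand was used in counting is not given in the sources used here. In whole tissue, fewer cells of a type and less RNA per cell cannot be told apart.

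**Figure D1:**
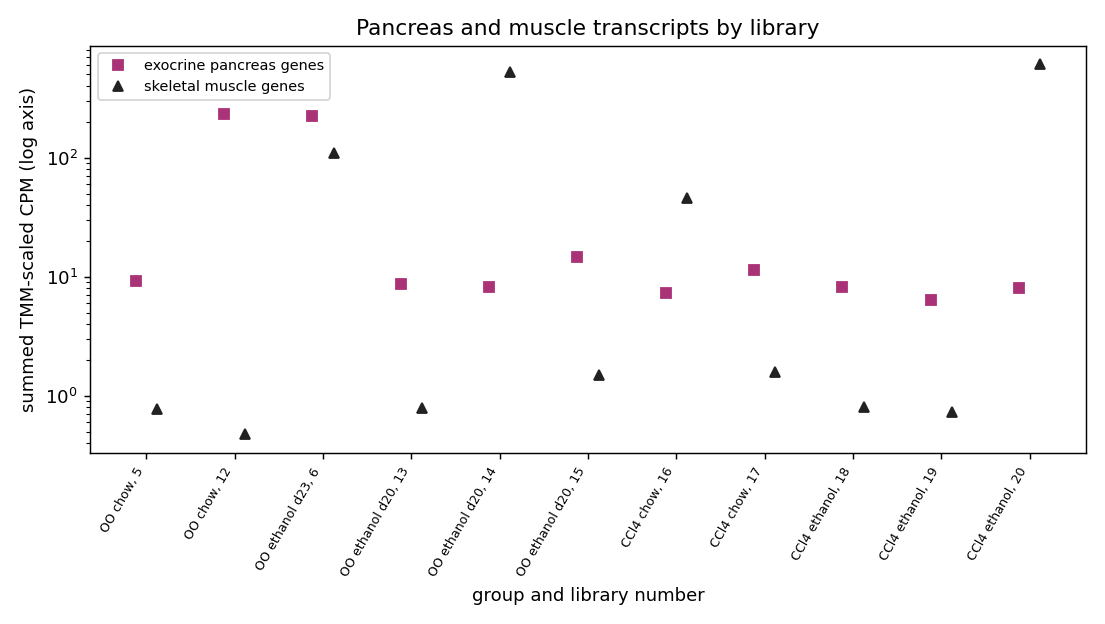
Summed TMM-scaled CPM (log axis) of the exocrine pancreas list (squares) and the skeletal muscle list (triangles) in each day 20 and day 23 library. Pancreas genes reach 231 CPM in OO chow library 12 and 223 CPM in OO ethanol library 6, and muscle genes reach 607 CPM in double injury library 20.

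Of 14778 genes tested, 1576 (10.7%) differed between double injury and chow, 879 of them higher (5.95%) and 697 lower (4.72%), in the quasi-likelihood test of edgeR at a Benjamini-Hochberg adjusted p under 0.05. A gene past that threshold is said to have risen or fallen. The direction was shared by all 3 against both libraries, without overlap, in 43.7% of genes, 21.6% higher and 22.1% lower, so non-overlap alone is common with 3 against 2. The median log2 change of all genes was -0.00. With control 12 alone 414 genes were called and 39.9% of them were higher, against 55.8% with both controls. With control 5 alone there were 994 calls. Double injury differed from OO with ethanol in 24% of genes and from CCl4 with chow in 1.25%. Lists of genes by function, written with earlier results of these data known, are described by how many tested members rose or fell, and these 3 comparisons share the double injury libraries. Each list count against chow is to be read beside the 5.95% of all genes that rose and the 4.72% that fell.

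**Figure D2:**
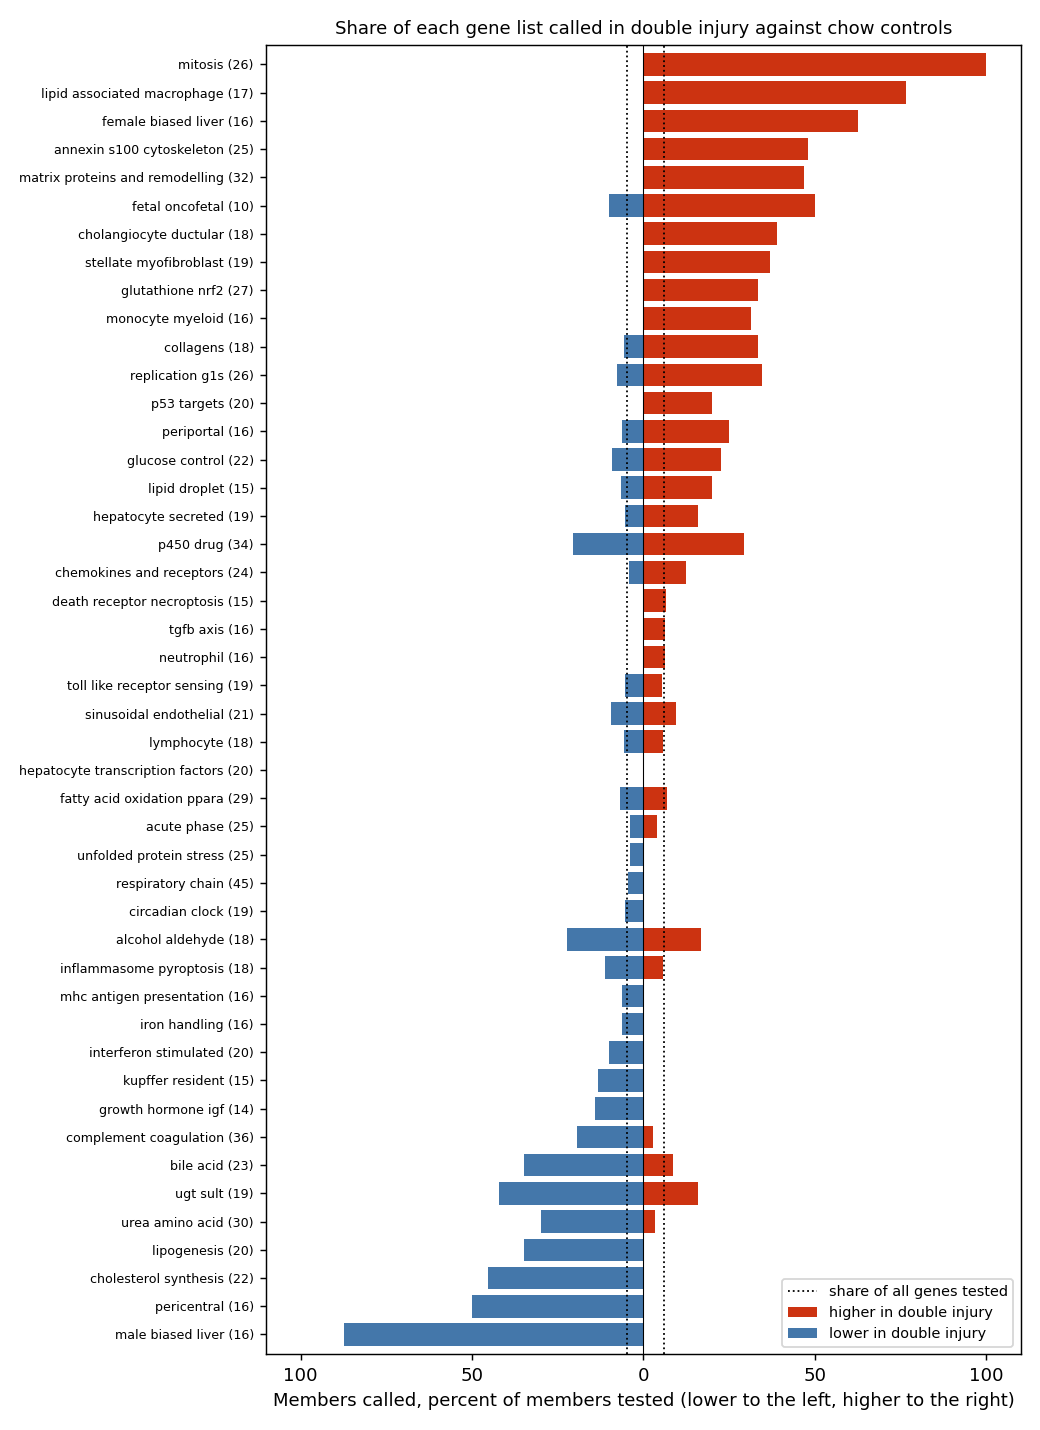
Percent of the tested members of each gene list (number tested in parentheses) that rose (red, right) or fell (blue, left) in double injury against the chow controls; dotted lines mark the 5.95% and 4.72% of all genes tested. Mitosis genes (26 of 26 higher) and male-biased liver genes (14 of 16 lower) lie at the ends.

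Male-biased liver genes fell and female-biased genes rose. Of 16 male-biased genes 14 fell, with a median log2 change of -3.09, and between 12 and 14 fell when any 1 of the 5 libraries was left out. Of 16 female-biased genes 10 rose, and the count was between 5 (without control 5) and 11 (without library 18). Hsd3b5, a steroid dehydrogenase of male mouse liver on chromosome 3 at 98618634 to 98630252 (mm10, minus strand), had 128 and 132 CPM in chow libraries 5 and 12 and 0.169, 0.123 and 0.168 CPM in double injury libraries 18, 19 and 20. The controls were nearly equal and all double injury libraries were close to the level of a few reads. Its log2 change was -9.64 ± 0.65 (SE; edgeR adjusted p = 5.49e-06). It was also below OO with ethanol at day 20, at 1.39, 0.313 and 3.19 CPM (log2 change -3.19, adjusted p = 0.0216), and CCl4 with chow, at 18.2 and 40.8 CPM (-7.51, adjusted p = 0.00017). The day 23 library of OO with ethanol, at 0.151 CPM of Hsd3b5, was level with double injury.

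Slco1a1, an uptake carrier for bile acids and steroid conjugates, fell from 532 and 266 CPM in the controls to 5.65, 7.3 and 5.56 CPM (log2 change -6.01 ± 0.48, edgeR adjusted p = 1.84e-05). Cyp7b1, which hydroxylates oxysterols and steroids, had 250.5 and 229 CPM in the controls and 16, 17.3 and 9.51 CPM in double injury (-4.06 ± 0.27, adjusted p = 5.49e-06). For both genes the groups were far apart relative to the spread within them. Cyp7b1 stood at 155, 143 and 230.1 CPM in OO with ethanol and 106 and 159 CPM in CCl4 with chow, so double injury was below each injury alone (adjusted p = 1.22e-05 and 8.55e-05). The same held for Cyp4a12a, a fatty acid hydroxylase of male liver and kidney, at 93.3 and 51.9 CPM in the controls, 0.97, 0.552 and 0.0842 CPM in double injury, 80.6, 23.7 and 30.3 CPM in OO with ethanol and 60 and 24.2 CPM in CCl4 with chow (adjusted p = 0.000138, 0.00013 and 0.000979 against these). Its close copy Cyp4a12b fell with a log2 change of -8.10. Elovl3, which elongates very long fatty acids, fell from 103 and 235 CPM to 0.548, 0.123 and 0.0842 CPM (-9.09, adjusted p = 0.0013), although its controls differed from each other more than those of the genes above. Susd4, a complement regulator, fell by 5.65 on the log2 scale (adjusted p = 1.84e-05). Of the male-biased members not called, Cyp2d9 stood at -0.59 (adjusted p = 0.154) and Gstp1 at 0.10 (adjusted p = 0.795).

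On the female-biased side, Cyp2b9, a steroid hydroxylase, went from 1.37 and 1.03 CPM to 234, 257 and 265 CPM (log2 change 7.70 ± 0.56, edgeR adjusted p = 8.23e-06). Its levels were 235, 129.8 and 143 CPM in OO with ethanol and 1.83 and 0.133 CPM in CCl4 with chow, so the high level was shared with the OO ethanol arm. Cyp2a4, a testosterone hydroxylase, went from 1.43 and 0.711 CPM to 198, 45.2 and 208 CPM (7.09, adjusted p = 0.000825), with library 19 lower than the other two. Prom1, a membrane protein also used as a marker of bile duct progenitors, rose from 2.28 and 2.13 CPM to 57.2, 45.7 and 83.6 CPM (4.81 ± 0.62, adjusted p = 0.0006). It was at 8.12, 6.79 and 2.3 CPM in OO with ethanol and 4.97 and 4.38 CPM in CCl4 with chow, below double injury in both (adjusted p = 0.000423 and 0.00749). Abcd2, a peroxisomal fatty acid transporter, rose from 13.8 and 8.85 CPM to 70.2, 71.7 and 74.2 CPM (2.66, adjusted p = 7.86e-05). Cyp17a1, which makes androgen precursors, rose from 7.28 and 6.32 CPM to 23.2, 78.5 and 90.2 CPM (3.22, adjusted p = 0.00798).

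Some female-biased genes were at or near 0 in the controls and came up mainly in library 19. Cyp3a41a had 0 CPM in both controls and 0.169, 5.64 and 1.43 CPM in double injury (edgeR adjusted p = 0.0338), at least 22.6-fold higher against a floor of 3 counts over both controls. Sult2a2, a sulphotransferase, had 0 CPM in both controls and 0.127, 4.9 and 1.6 CPM in double injury (adjusted p = 0.0363), at least 20.7-fold higher against the same floor. Cyp3a44 had 0.065 and 0 CPM in the controls and 1.9, 15.4 and 8 CPM in double injury (adjusted p = 0.00219; limma-voom gave 0.126 and so no call). With the genes at 0 in both controls set to that bound, the median log2 change of the 16 female-biased genes was 3.80, against 5.05 as fitted. Of the growth hormone pathway list 2 of 14 fell, beside 4.72% of all genes. They were the growth hormone receptor gene Ghr, from 626 and 550.3 CPM to 200.2, 252 and 223 CPM (-1.39 ± 0.14, adjusted p = 0.000136), and Egfr, the epidermal growth factor receptor gene (-1.29, adjusted p = 0.0375).

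**Figure D3:**
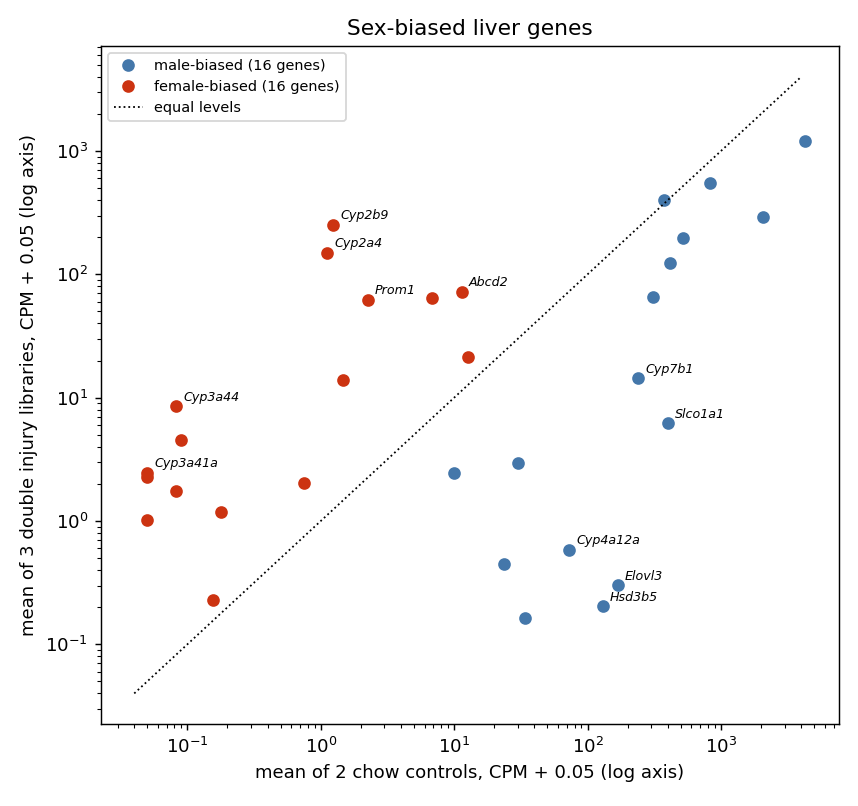
Mean level of 16 male-biased (blue) and 16 female-biased (red) liver genes in the 2 chow controls (x axis) and in the 3 double injury libraries (y axis), both as TMM-scaled CPM plus 0.05 on log axes; the dotted line marks equal levels. Male-biased genes lie below the line except Gstp1, and female-biased genes lie above it.

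Cytochrome P450 genes of drug and steroid metabolism moved in both directions: of 34 tested, 10 rose and 7 fell. Cyp2b10, the classic target of the xenobiotic receptor CAR, on chromosome 7 at 25897620 to 25926624 (plus strand), went from 4.81 and 4.27 CPM in the controls to 799, 569 and 1102 CPM in double injury. The log2 change was 7.50 ± 0.45 (edgeR adjusted p = 3.61e-06). The 3 double injury libraries stood far above both controls. Cyp2c55, which oxidises arachidonic acid, rose from 4.23 and 3.56 CPM to 134, 85.2 and 70.1 CPM (4.63 ± 0.31, adjusted p = 5.49e-06). Cyp2c29 rose from 1350.4 and 1018 CPM to 5627, 6508 and 4536 CPM (2.23, adjusted p = 7.93e-05), and Cyp3a11, a target of the xenobiotic receptor PXR, from 1032 and 1679.9 CPM to 4523, 5552 and 2652 CPM (1.65, adjusted p = 0.00603).

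Cyp2b10 and Cyp2c55 were also high in the ethanol arm. Cyp2b10 stood at 991, 1449 and 839 CPM in OO with ethanol and at 18.7 and 10.3 CPM in CCl4 with chow. The difference of double injury from the first did not pass (log2 change -0.41, edgeR adjusted p = 0.318), and that from the second did (5.83, adjusted p = 2.61e-05). For Cyp2c55 the 2 log2 changes were 0.56 (adjusted p = 0.0769) and 3.00 (adjusted p = 0.000205). Over the whole P450 list, double injury was lower than OO with ethanol in 20 of 34 genes and higher in 3, beside 11.3% and 12.7% of all genes. It was higher than CCl4 with chow in 11 and lower in 2, beside 0.474% and 0.778% of all genes.

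Among P450 genes that fell, Cyp2c38 went from 31.3 and 28.4 CPM to 0.548, 0.429 and 1.52 CPM (-5.29, adjusted p = 3.12e-05) and Cyp2a5, which hydroxylates coumarin, from 426 and 200.3 CPM to 30.6, 51 and 13.8 CPM (-3.29, adjusted p = 0.000842). Cyp2a5 and the risen Cyp2a4 are close copies, and reads without a unique place went uncounted, which leaves the levels of such pairs uncertain; this also holds for the Cyp2b, Cyp2c, Cyp3a and Cyp4a12 genes named here. Cyp1a2, which activates aromatic amines, fell from 252 and 294 CPM to 119, 91.5 and 61.3 CPM (-1.59, adjusted p = 0.00603).

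Of 27 genes of glutathione and the oxidant sensor NRF2, 9 rose (2 rose without control 5). Cbr1, a carbonyl reductase, rose from 27.4 and 28.1 CPM to 63.1, 93.5 and 66.3 CPM (1.42 ± 0.19, edgeR adjusted p = 0.000703), and Mgst3, a microsomal glutathione transferase, from 8 and 5.61 CPM to 22.8, 23.5 and 18 CPM (1.65, adjusted p = 0.0019). Gsta1, a glutathione transferase of NRF2 response, rose from 0.91 and 1.82 CPM to 22, 11.1 and 7.32 CPM (3.35, adjusted p = 0.00486). Nqo1, the quinone reductase most often used to read NRF2, had 6.96 and 7.51 CPM in the controls and 13.4, 22.6 and 9.51 CPM in double injury, and this did not pass (1.07, adjusted p = 0.0695; the call was gained without library 20, without the count filter and with DESeq2). Against OO with ethanol, where Nqo1 was at 34.7, 46.4 and 37.1 CPM, it was lower (-1.38, adjusted p = 0.00504), as were 18 of the 27 genes in all. Conjugating UGT and SULT genes had 3 of 19 higher and 8 lower (2 lower without control 5). Ugt1a9, a glucuronosyltransferase that shares exons with its neighbours, rose from 17.3 and 19.8 CPM to 220.3, 202 and 88.2 CPM (3.20, adjusted p = 0.000391). The OO libraries of day 0, numbers 1 and 2, had 42.9 and 86.5 CPM of Ugt1a9, above the chow controls, and the second was close to library 20. Ugt2b38, also male-biased, fell by 2.03 on the log2 scale (adjusted p = 0.000547).

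**Figure D4:**
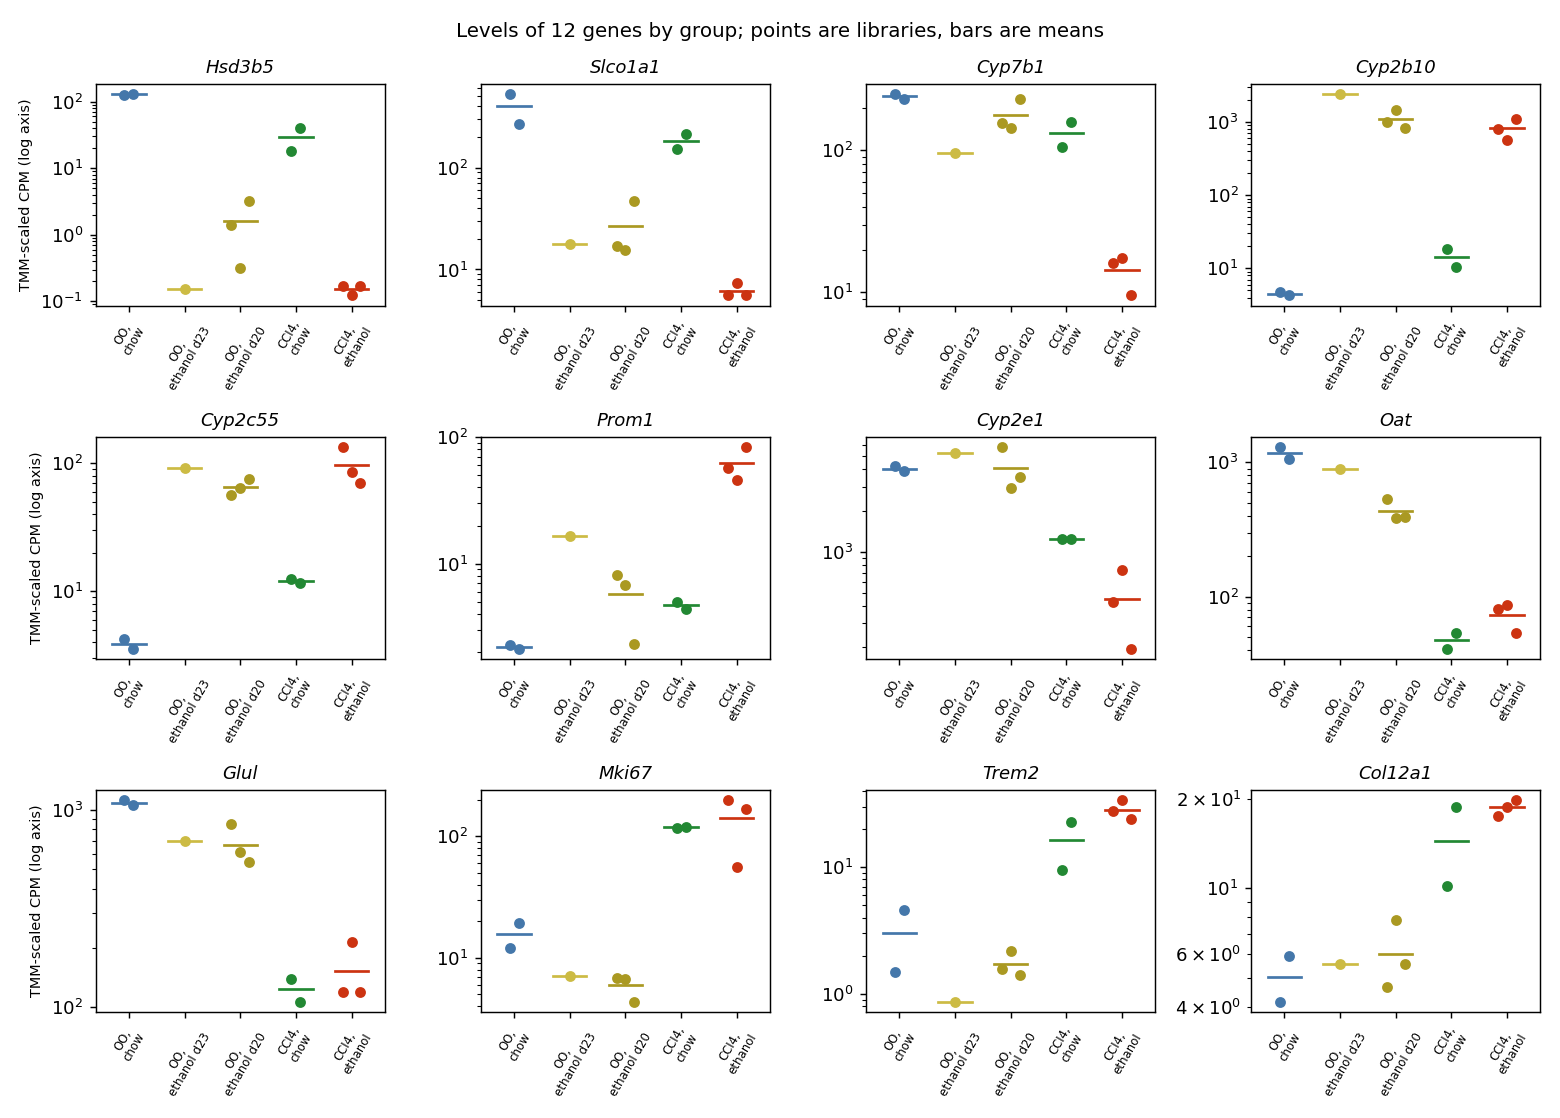
TMM-scaled CPM (log axes) of 12 genes in the OO chow controls, OO ethanol at day 23 (1 library) and day 20, CCl4 chow and CCl4 ethanol (double injury); points are libraries and bars are group means. Cyp2b10 and Cyp2c55 are high in both ethanol arms, Oat, Glul and Mki67 separate the CCl4 arms, and Slco1a1, Cyp7b1 and Prom1 are furthest from the controls in double injury, while Hsd3b5 is as low in the day 23 ethanol library.

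Genes of the zone around the central vein fell: 8 of 16 were lower, with a median log2 change of -1.08, and 7 or 8 were lower when any 1 library was left out. Oat, the ornithine aminotransferase of these cells, fell from 1305 and 1059 CPM to 80.7, 86.3 and 53.8 CPM (-4.0 ± 0.24, edgeR adjusted p = 3.61e-06). Glul, glutamine synthetase, on chromosome 1 at 153899944 to 153909723 (plus strand), fell from 1125 and 1059 CPM to 120.1, 215 and 120.0 CPM (-2.85 ± 0.26, adjusted p = 6.2e-05). The lowest control was several times the highest double injury library for both genes. Slc1a2, a glutamate transporter beside them, fell from 343 and 259 CPM to 1.18, 22.5 and 1.35 CPM (-5.17, adjusted p = 0.00321), with library 19 highest among the 3. The ammonia channel gene Rhbg fell from 14.1 and 14.1 CPM to 5.7, 4.84 and 3.45 CPM (-1.57, adjusted p = 0.000849).

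Glul and Oat were also low in CCl4 with chow. Glul was at 139.7 and 106 CPM and Oat at 41 and 54 CPM there, and the differences did not pass (log2 change 0.30, edgeR adjusted p = 0.725, and 0.63, adjusted p = 0.308). In OO with ethanol Glul was at 849, 610.4 and 548 CPM and Oat at 531, 384 and 389 CPM, both above double injury (adjusted p = 0.000136 and 3.43e-05). Of 16 genes of the zone around the portal vein 4 rose and 1 fell, beside 5.95% and 4.72% of all genes. Aldh1b1, a mitochondrial aldehyde dehydrogenase, rose from 96 and 100.5 CPM to 409, 268 and 269 CPM (1.68, adjusted p = 0.00129). Hsd17b13, a lipid droplet enzyme, rose from 222 and 245 CPM to 581, 373 and 459 CPM (1.01, adjusted p = 0.00536; lost without control 5), and Pck1, of glucose synthesis, fell (-1.17, adjusted p = 0.0227).

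Cyp2e1, on chromosome 7 at 140763739 to 140774987 (plus strand), fell from 4238 and 3874 CPM to 425, 731 and 194 CPM (-3.17 ± 0.42, edgeR adjusted p = 0.000731). It was at 5859, 2909 and 3527 CPM in OO with ethanol, above double injury (-3.19, adjusted p = 0.000252), and at 1235 and 1235 CPM in CCl4 with chow, where the difference did not pass (-1.46, adjusted p = 0.135). Every double injury library was below both CCl4 chow libraries for this gene. Of 18 genes of alcohol and aldehyde metabolism 3 rose and 4 fell. Beside Cyp2e1 the lower ones were Acss2, which activates acetate, from 479 and 326 CPM to 89.1, 79.6 and 70.5 CPM (-2.33, adjusted p = 0.000383), Adh4 (-1.05, adjusted p = 0.00712) and the catalase gene Cat. The higher ones were Aldh1b1, Aldh3b1 (1.13, adjusted p = 0.00925) and Adh1, the main liver alcohol dehydrogenase gene, from 1487 and 1624 CPM to 2835, 2037 and 2524 CPM (0.66, adjusted p = 0.0241).

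In bile acid metabolism 8 of 23 genes fell and 2 rose (3 fell without control 12, 4 without control 5 or library 18). Cyp39a1, an oxysterol hydroxylase of an alternative route to bile acids, on chromosome 17 at 43667425 to 43751431 (plus strand), rose from 5.46 and 6.8 CPM to 66.4, 69 and 82.5 CPM (3.57 ± 0.22, edgeR adjusted p = 3.61e-06). It was also above OO with ethanol, at 20.4, 24.3 and 27.5 CPM (adjusted p = 9.56e-05), and CCl4 with chow, at 20.9 and 23.1 CPM (adjusted p = 0.000714). The 4 groups did not overlap, except for the 2 single-injury arms with each other. The OO libraries of day 0, numbers 1 and 2, had 21.5 and 31.9 CPM. These were above the chow controls, below double injury and level with or above the single-injury arms. Cyp7b1 and Slco1a1, given above, Cyp27a1, a sterol hydroxylase, from 502 and 486 CPM to 158, 209 and 123 CPM (-1.60, adjusted p = 0.000249), and Cyp8b1, which makes cholic acid (-1.67, adjusted p = 0.0206), fell. Cyp7a1, the rate-limiting enzyme of the classical route, had 299.9 and 182 CPM in the controls and 271, 140.0 and 39.7 CPM in double injury, overlapping and not called (-0.68, adjusted p = 0.653).

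Cholesterol synthesis had 10 of 22 genes lower (2 fell without control 5), beside 4.72% of all genes, with a median log2 change of -0.83. In 20 of 22 all 3 libraries were below both controls, beside 22.1% of all genes. Nsdhl, a sterol dehydrogenase, fell from 68.2 and 80.8 CPM to 24.1, 23.2 and 25.2 CPM (-1.63 ± 0.23, edgeR adjusted p = 0.000987), and Pmvk, phosphomevalonate kinase, from 63.9 and 62.8 CPM to 27.5, 26.2 and 27.1 CPM (-1.23, adjusted p = 0.00259). Fdps, which makes farnesyl diphosphate, fell from 367 and 310.0 CPM to 121, 134 and 103 CPM (-1.50, adjusted p = 0.0102). Fatty acid synthesis had 7 of 20 lower (2 without control 5). Elovl5, an elongase, fell from 845 and 616 CPM to 313, 311 and 309 CPM (-1.23, adjusted p = 0.00028), the desaturase gene Fads1 from 476 and 384 CPM to 215, 163 and 209 CPM (-1.14, adjusted p = 0.00306) and Scd1, stearoyl-CoA desaturase, from 16878 and 14736 CPM to 4219, 8597 and 2074 CPM (-1.67, adjusted p = 0.045). Scd1 and Elovl5 were higher than in OO with ethanol (1.65, adjusted p = 0.0186, and 0.47, adjusted p = 0.02). The OO libraries of day 0, numbers 1 and 2, had 268 and 260 CPM of Elovl5, below every double injury library. The fall of Elovl5 therefore holds against the chow controls only. For Fads1 the day 0 libraries had 295 and 276 CPM, above double injury.

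Lipid storage genes were divided. Fitm1, which partitions fat into droplets, on chromosome 14 at 55575617 to 55576954 (plus strand), fell from 24.4 and 18.7 CPM to 0.506, 0.123 and 0.758 CPM (-5.57 ± 0.34, edgeR adjusted p = 3.61e-06). It was at 26.5, 27.1 and 32.9 CPM in OO with ethanol and 0.805 and 0.797 CPM in CCl4 with chow, so both CCl4 arms were low. Cd36, a fatty acid receptor of hepatocytes and macrophages, rose from 107 and 89.2 CPM to 232, 273 and 316 CPM (1.48, adjusted p = 0.00132), and so did Lpl, lipoprotein lipase, from 41.6 and 80.3 CPM to 222, 184 and 172 CPM (1.66, adjusted p = 0.00377). Of 29 genes of fatty acid oxidation and PPARA, 2 rose, Acot2 (2.07, adjusted p = 0.00211) and Cyp4a14 (2.43, adjusted p = 0.0497), and 2 fell, Acaa1a (-0.80, adjusted p = 0.00456; lost without control 5) and Fabp1 (-1.02, adjusted p = 0.0218). These counts lay near the 5.95% and 4.72% of all genes that rose and fell.

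Amino acid and urea genes had 9 of 30 lower and 1 higher (5 lower without control 5, 12, library 18 or 20). Tat, tyrosine aminotransferase, fell from 1417 and 1538 CPM to 588, 649.7 and 327 CPM (-1.50, adjusted p = 0.0026), and Got1, aspartate aminotransferase, from 254 and 203 CPM to 93.6, 110.5 and 101 CPM (-1.17, adjusted p = 0.00211). In the glucose list 5 of 22 rose and 2 fell, beside 5.95% and 4.72% of all genes. Aldoa, aldolase A, rose from 77.7 and 87.6 CPM to 121, 167 and 148 CPM (0.81, adjusted p = 0.00877; lost without control 5). Pkm, the pyruvate kinase of muscle, macrophages and fetal liver, rose from 38.3 and 53.3 CPM to 104, 97 and 139 CPM (1.31, adjusted p = 0.0108), and Pfkfb1, the liver's control enzyme of glycolysis, fell from 29.4 and 35.2 CPM to 11.8, 10.8 and 15.9 CPM (-1.34, adjusted p = 0.00191). The respiratory chain had 2 of 45 lower, Sdha (-0.69, adjusted p = 0.0176) and Cyc1 (-0.41, adjusted p = 0.0341), near the 4.72% of all genes.

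Among secreted liver proteins 3 of 19 were higher and 1 lower, beside 5.95% and 4.72% of all genes, with a median log2 change of 0.03. Albumin, Alb, had 37732 and 53537 CPM in the controls and 54451, 43032 and 56701 CPM in double injury (0.17, adjusted p = 0.641), and the groups overlapped. Apoa4, an apolipoprotein of lipid export, rose from 115 and 74.1 CPM to 692, 1167 and 2051 CPM (3.78 ± 0.42, edgeR adjusted p = 0.000249), also above both single-injury arms of day 20 (adjusted p = 0.00484 and 0.0104). The day 23 library of OO with ethanol had 1789 CPM of Apoa4, above 2 of the 3 double injury libraries. Complement and coagulation genes had 7 of 36 lower and 1 higher (2 lower without control 5). F11, coagulation factor XI, fell from 94.8 and 90.3 CPM to 37.1, 35.9 and 42 CPM (-1.27, adjusted p = 0.000287), and C6, of the membrane attack complex and male-biased, from 373 and 462 CPM to 178, 89.9 and 104 CPM (-1.75, adjusted p = 0.00143). The higher one was C1qc, made by macrophages (0.77, adjusted p = 0.023).

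Of 25 acute phase genes 1 rose, Apcs (1.61, adjusted p = 0.0324), and 1 fell, Hamp, the iron hormone hepcidin, from 262 and 373 CPM to 51.6, 69.4 and 4.21 CPM (-2.92, adjusted p = 0.0202; lost without control 5, control 12 or library 18). Both counts were near the shares of all genes, 5.95% higher and 4.72% lower. The OO libraries of day 0, numbers 1 and 2, averaged 474 CPM (SD 305) of Apcs. Double injury averaged 527 CPM (SD 249) and the chow controls 173 CPM (SD 23.6). The rise of Apcs is thus a statement about the chow controls, and the difference from day 0 was not tested. Lcn2, lipocalin 2, was higher in all 3 libraries, at 139 and 448 CPM against 1033, 789 and 1802 CPM, but did not pass (2.04, adjusted p = 0.0722; it passed with DESeq2, limma-voom and no filter). The OO libraries of day 0 had 1174 and 277 CPM of Lcn2, the first inside the range of double injury. Saa1, serum amyloid A, had 798 and 1955 CPM in the controls and 612, 1095 and 741 CPM in double injury, with the highest value in control 12 (-0.75, adjusted p = 0.453). Of 20 hepatocyte transcription factor genes 0 were called by edgeR, 5 had an unadjusted p under 0.05, and DESeq2 called 1. Hnf4a, the chief hepatocyte factor, had 711 and 602 CPM and 419.9, 481 and 537 CPM (-0.45, adjusted p = 0.0912). The clock repressor gene Nr1d1 was the only 1 of 19 clock genes called, from 28.8 and 25.4 CPM to 6.08, 7.3 and 10.3 CPM (-1.80, adjusted p = 0.0198), and the hour of collection is not given in the sources used here.

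In all 26 mitosis genes the 3 double injury libraries were above both controls, beside 21.6% of all genes. All 26 rose, beside 5.95% of all genes, with a median log2 change of 3.16. The count was 15 without control 5 and 23 to 26 without any other library. Mki67, the standard marker of cycling cells, had 12.2 and 19.5 CPM in the controls and 199, 55.9 and 169.8 CPM in double injury (3.17 ± 0.46, edgeR adjusted p = 0.00129). Cdk1, the kinase that starts mitosis, rose from 2.15 and 3.56 CPM to 35.9, 10.4 and 30.4 CPM (3.18 ± 0.52, adjusted p = 0.00273; lost without control 5). Library 19 was the lowest of the 3 for both genes and the controls were lower still. Ccnb1, cyclin B1, rose from 0.975 and 1.82 CPM to 54, 13.4 and 28.9 CPM (4.54, adjusted p = 0.0013), Hmmr, a spindle protein, from 1.11 and 1.82 CPM to 41.1, 14.3 and 29.5 CPM (4.29, adjusted p = 0.000211), and Cenpf, of the kinetochore, from 2.02 and 3.87 CPM to 56.9, 17.8 and 41.4 CPM (3.73, adjusted p = 0.000405). The smallest change was that of Kif23, a kinesin of cell separation, from 2.99 and 2.53 CPM to 9.28, 3.74 and 8.25 CPM (1.36, adjusted p = 0.0478).

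All 26 were also above OO with ethanol, with log2 changes of 2.39 to 5.48, beside 12.7% of all genes called higher there. Against CCl4 with chow the 26 log2 changes lay between -0.09 and 0.89, with adjusted p of 0.582 or above. Mki67 was at 6.84, 6.63 and 4.34 CPM in OO with ethanol and 117 and 121 CPM in CCl4 with chow. The OO ethanol libraries were thus below the chow controls and the CCl4 chow libraries inside the range of double injury.

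**Figure D5:**
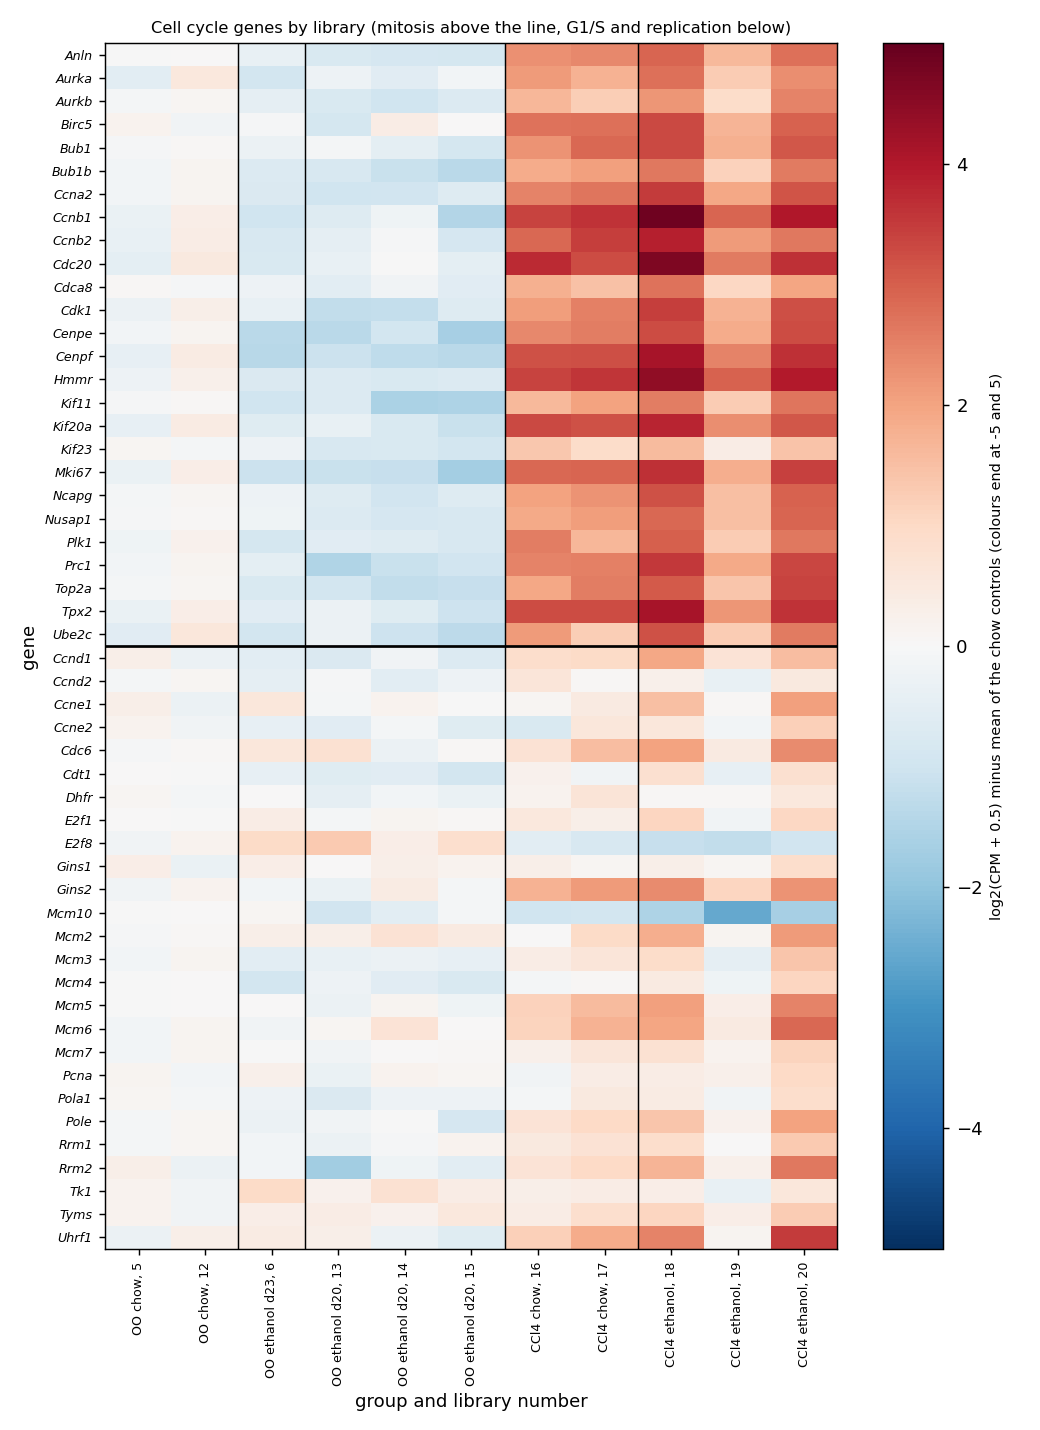
Level of 26 mitosis genes (above the line) and 26 genes of G1/S and replication (below) in 11 day 20 and day 23 libraries, as log2(CPM + 0.5) minus the mean of the chow controls; red is higher and blue lower. Mitosis genes are red in all CCl4 libraries, palest in double injury library 19, and Mcm10 and E2f8 are blue in all 3 double injury libraries.

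Promoters of the mitosis genes are shown because all 26 members rose. Those of the cholesterol synthesis, male-biased and female-biased lists were scanned too. The reference table held promoters of 22 of the 26, from 250 bases before to 50 after the RefSeq start (GRCm38.p6). TTTGAA, the core of the cell cycle genes homology region (CHR) that holds the DREAM repressor complex, was found on either strand in 17 of 22 (77.3%), beside 18.1% of 27025 promoters of all genes. CCAAT, the letters bound by the factor NF-Y, was found in 19 of 22 (86.4%), beside 37.9% of all. It was not particular to risen genes. The cholesterol synthesis list, where 10 of 22 genes fell, had CCAAT in 13 of 14 promoters (92.9%). The male-biased list had it in 3 of 10 (30%) and the female-biased list in 2 of 11 (18.2%). Matches to TTTGAA and CCAAT were counted separately and can share only their end letters. A match is a description of these letters, not a site. For the G1/S and replication genes the counts were 2 of 18 (11.1%) for TTTGAA and 12 of 18 (66.7%) for CCAAT. The 100 bases before the start are given 5′ to 3′ on the gene's strand for 4 risen genes, with TTTGAA, or its reverse complement, in capitals.
Cdc20: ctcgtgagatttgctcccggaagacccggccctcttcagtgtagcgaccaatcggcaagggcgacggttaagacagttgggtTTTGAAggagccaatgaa
Cdk1: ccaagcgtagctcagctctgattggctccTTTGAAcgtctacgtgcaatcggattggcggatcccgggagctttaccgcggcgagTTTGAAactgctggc
Top2a: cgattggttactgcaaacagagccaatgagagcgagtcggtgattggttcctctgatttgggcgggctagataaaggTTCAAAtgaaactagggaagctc
Ncapg: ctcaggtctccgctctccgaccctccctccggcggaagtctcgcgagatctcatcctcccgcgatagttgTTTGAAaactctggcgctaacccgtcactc
They lie at chr4:118437344-118437443 (minus strand), chr10:69352913-69353012 (minus), chr11:99024190-99024289 (minus) and chr5:45669825-45669924 (plus). The first match begins 18 bases before the start in Cdc20, which activates the anaphase complex, 71 in Cdk1, which has 2 matches, 23 in Top2a, a topoisomerase, and 30 in Ncapg, of condensin. Levels were 1.04 and 2.61 CPM in the controls and 55.2, 12.8 and 27 CPM in double injury for Cdc20 (4.15, adjusted p = 0.00116). For Top2a they were 7.61 and 8.69 CPM and 71.6, 22.1 and 89.2 CPM (2.90, adjusted p = 0.0031), and for Ncapg 1.24 and 1.5 CPM and 16.6, 4.72 and 14 CPM (3.11, adjusted p = 0.00218). Library 19 held the lowest double injury value of these 3 genes too.

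Genes of G1/S and DNA replication rose in fewer cases: 9 of 26 were higher and 2 lower, with a median log2 change of 0.83. The count of higher genes was 1 without control 5 or 12, 2 without library 18 or 20 and 15 without library 19. Gins2, of the replicative helicase, rose from 0.39 and 0.632 CPM to 4.6, 1.59 and 4.21 CPM (2.76, adjusted p = 0.0076; lost without control 5), and Mcm6, of the same helicase, from 7.35 and 9.17 CPM to 33.3, 11.4 and 63.5 CPM (2.12, adjusted p = 0.0273). Ccnd1, cyclin D1, rose from 51.7 and 34.7 CPM to 162, 68.2 and 124 CPM (1.45, adjusted p = 0.012). The lower ones were Mcm10, a replication initiation factor, from 45.4 and 47.2 CPM to 15.4, 7.36 and 14.5 CPM (-1.90 ± 0.32, edgeR adjusted p = 0.00315), and E2f8, a repressor of cycle genes, from 13 and 17.2 CPM to 6.46, 6.07 and 7.41 CPM (-1.18, adjusted p = 0.0102). Of 20 p53 target genes 4 rose by edgeR, and 0 passed without control 5, library 18 or library 20. They were Phlda3 (2.21, adjusted p = 0.0216), Eda2r (1.62, adjusted p = 0.0346), Ddit4l (1.85, adjusted p = 0.0482) and Bax (0.67, adjusted p = 0.0273). Cdkn1a, the cell cycle inhibitor p21, had 2.15 and 15.5 CPM in the controls and 10.2, 6.19 and 8.08 CPM in double injury, with the highest value in control 12 (-0.10, adjusted p = 0.947).

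Genes of lipid-associated macrophages, the cells that gather at damaged fatty tissue, had 16 of 17 above both controls in all 3 libraries, beside 21.6% of all genes. Of the 17, 13 rose, beside 5.95% of all genes, with a median log2 change of 1.66. The count was 6 without control 5 and 12 to 14 without any other library. Gpnmb, a lysosomal glycoprotein, on chromosome 6 at 49036546 to 49070929 (plus strand), had 2.41 and 33.7 CPM in the controls and 273, 434 and 206 CPM in double injury (4.09 ± 0.86, edgeR adjusted p = 0.0102). Control 12 was above control 5 and the lowest double injury library was above both. Trem2, a lipid receptor, rose from 1.5 and 4.58 CPM to 27.6, 33.8 and 24.1 CPM (3.25 ± 0.47, adjusted p = 0.00127), and Cd63, of lysosomal membranes, from 1.11 and 5.14 CPM to 38.5, 35.7 and 45 CPM (3.70 ± 0.49, adjusted p = 0.000749). Lgals3, galectin 3, rose from 11.6 and 21.2 CPM to 89.3, 109 and 80.8 CPM (2.51, adjusted p = 0.00245), and Spp1, osteopontin, from 63.2 and 96.6 CPM to 372, 553 and 583 CPM (2.65, adjusted p = 0.00764; lost without control 5).

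These genes were low in OO with ethanol, where Trem2 was at 1.59, 2.19 and 1.42 CPM and Gpnmb at 5.55, 6.53 and 1.95 CPM, and 15 of the 17 were higher in double injury. In CCl4 with chow the 2 libraries differed: Trem2 was at 9.58 and 22.9 CPM and Gpnmb at 58.4 and 158 CPM. Of the 17, only Cd36 was higher in double injury than there (1.12, adjusted p = 0.0246), beside 0.474% of all genes, although all 17 log2 changes were positive (0.33 to 2.07). Of 15 genes of resident Kupffer cells 2 fell, beside 4.72% of all genes. Timd4, a receptor for dying cells on long-lived Kupffer cells, fell from 17.4 and 32.6 CPM to 5.36, 3.43 and 4.29 CPM (-2.51 ± 0.31, adjusted p = 0.000479), and Cd163, the haemoglobin scavenger receptor, from 58.2 and 83.1 CPM to 32.2, 40.1 and 39.1 CPM (-0.93, adjusted p = 0.012; lost without control 12 or library 18). Clec4f, the defining Kupffer lectin of mice, had 216 and 266 CPM and 193, 128 and 182 CPM and was not called (-0.53, adjusted p = 0.0691; DESeq2 called it). The 5 Kupffer markers summed to 675 and 1000 CPM in the controls and 1019, 648 and 770 CPM in double injury, which overlap.

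Monocyte genes had 5 of 16 higher. Clec7a, the beta-glucan receptor, rose from 13 and 23.7 CPM to 65.4, 63.1 and 57.7 CPM (1.76, adjusted p = 0.0071), and Tyrobp, a signalling adaptor, from 27.6 and 37.1 CPM to 66.2, 69.1 and 59.2 CPM (1.01, adjusted p = 0.00951); both were lost without control 5. Of 24 chemokine and receptor genes 3 rose and 1 fell, beside 5.95% and 4.72% of all genes. Ccr1, a receptor of monocytes and neutrophils, rose from 1.43 and 1.9 CPM to 9.49, 10.5 and 12.4 CPM (2.69 ± 0.36, edgeR adjusted p = 0.000791). Cxcl13, a B cell attractant, fell from 9.1 and 62.7 CPM to 2.66, 2.82 and 1.35 CPM (-3.94, adjusted p = 0.00287), with controls that differed widely from each other. Neutrophil genes had 1 of 16 higher, Mmp8 (1.71, adjusted p = 0.0339), near the 5.95% of all genes. The 4 neutrophil markers summed to 19.1 and 60.4 CPM in the controls and 81.1, 51.3 and 126 CPM in double injury.

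Other immune lists had few calls, beside 5.95% of all genes higher and 4.72% lower. Among 18 lymphocyte genes Il7r rose (2.18, adjusted p = 0.0313) and Cd4 fell (-2.08, adjusted p = 0.00966), and among 16 antigen presentation genes H2-K1 fell (-0.57, adjusted p = 0.0377). Of 20 interferon-stimulated genes 2 fell, Irf7 (-0.93, adjusted p = 0.0261) and Ifih1 (-0.55, adjusted p = 0.00603). Their median log2 change was -0.58 against control 12 alone and 0.03 against control 5 alone. Of 18 inflammasome and pyroptosis genes, Naip2 rose (0.57, adjusted p = 0.04) and Nlrp6 (-0.74, adjusted p = 0.0375) and Il18 (-0.74, adjusted p = 0.0404) fell. Casp4, which encodes the caspase that senses bacterial endotoxin, had 4.16 and 5.69 CPM in the controls and 6.37, 7.05 and 4.29 CPM in double injury (0.27, adjusted p = 0.651). Gsdmd, the pore-forming protein that it cuts, had 43.9 and 46.3 CPM and 38.7, 35.7 and 41.9 CPM (-0.22, adjusted p = 0.414). Casp4 values overlapped those of the controls, and all 3 Gsdmd values were below both controls.

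Matrix proteins and their enzymes rose in 15 of 32 cases, with a median log2 change of 0.85. Without control 5 the count was 1, Mmp14, and it was 8 to 15 without any other library. Mmp12, the macrophage elastase, rose from 1.11 and 15.5 CPM to 117, 173 and 109 CPM (4.04, adjusted p = 0.0248), and Mmp13, a collagenase, from 0.26 and 0.711 CPM to 6.62, 4.05 and 7.83 CPM (3.68, adjusted p = 0.00509). Lum, the collagen-binding lumican, rose from 11.4 and 25.4 CPM to 141, 105 and 65.7 CPM (2.51, adjusted p = 0.00448; lost without control 5), and Mmp14, a membrane collagenase, from 47.3 and 58.7 CPM to 93.8, 89.1 and 95.4 CPM (0.81 ± 0.12, edgeR adjusted p = 0.00149).

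Collagen genes had 6 of 18 higher and 1 lower (2 higher without control 5 and 10 without control 12). Col12a1, a fibril-associated collagen, rose from 4.16 and 5.93 CPM to 17.6, 18.8 and 19.8 CPM (1.89 ± 0.28, edgeR adjusted p = 0.00154), and Col5a3 fell from 47.4 and 55.3 CPM to 16.9, 21.5 and 18.8 CPM (-1.43 ± 0.16, adjusted p = 0.000249). The main fibril collagens did not pass. Col1a1 had 9.43 and 35.7 CPM in the controls and 78.6, 24.1 and 65.6 CPM in double injury (1.32, adjusted p = 0.197), and Col3a1 98 and 275 CPM and 619, 275 and 592 CPM (1.41, adjusted p = 0.102; it passed against control 5 alone). In both, control 12 was above or level with library 19. Col1a1 was at 104 and 80.4 CPM in CCl4 with chow and 12.5, 14.2 and 5.22 CPM in OO with ethanol. Timp1, an inhibitor of matrix enzymes, was at 0.39 and 1.26 CPM and 1.81, 2.57 and 3.87 CPM (1.74, adjusted p = 0.312).

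Stellate and mesenchymal genes had 7 of 19 higher (1 without control 5, 3 without library 18). Pdgfra, a growth factor receptor, rose from 16.7 and 25.1 CPM to 86.3, 61 and 53.1 CPM (1.68 ± 0.23, edgeR adjusted p = 0.000829), and Hgf, the hepatocyte growth factor gene, from 32.7 and 35.1 CPM to 83.3, 54.5 and 69.5 CPM (1.03, adjusted p = 0.00676; lost without control 5). Acta2, the smooth muscle actin of activated stellate cells, had 6.37 and 10.7 CPM and 4.64, 7.05 and 13.5 CPM, overlapping (-0.04, adjusted p = 0.977). The highest Acta2 value was in library 20, which also held the muscle transcripts; their part in it was not tested. Stellate cell markers summed to 238 and 287 CPM in the controls and 451, 398 and 474 CPM in double injury. In the TGF-beta list 1 of 16 rose, Bambi, a decoy receptor (1.62, adjusted p = 0.0079), near the 5.95% of all genes. Endothelial genes had 2 of 21 higher and 2 lower, beside 5.95% and 4.72% of all genes. Among the lower ones was Kdr, the VEGF receptor, from 104 and 105 CPM to 72.4, 68.5 and 63.7 CPM (-0.61, adjusted p = 0.00291).

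Ductular and epithelial progenitor genes had 7 of 18 higher (1 without control 5), Prom1, given above, among them. Bicc1, an RNA-binding protein, rose from 4.42 and 8.22 CPM to 15.5, 14.4 and 16 CPM (1.28, adjusted p = 0.00928; lost without control 5), and Sox4, a transcription factor, from 0.65 and 1.9 CPM to 6.29, 3.74 and 6.82 CPM (2.16, adjusted p = 0.00975). The keratin of bile ducts, Krt19, had 1.5 and 1.42 CPM and 3.04, 3.19 and 2.53 CPM (1.00, adjusted p = 0.316) and Sox9, a ductal factor, 5.53 and 3.95 CPM and 4.64, 2.64 and 5.14 CPM (-0.20, adjusted p = 0.747), neither called. The 4 cholangiocyte markers summed to 9.62 and 7.27 CPM in the controls and 13.7, 10.1 and 13.3 CPM in double injury.

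Of 10 fetal and oncofetal genes 5 rose and 1 fell (1 rose without control 5 and 2 without control 12). Ly6d, a surface protein of the Ly6 family, rose from 1.76 and 4.11 CPM to 163, 106 and 170.1 CPM (5.67 ± 0.67, edgeR adjusted p = 0.000349). It was above OO with ethanol, at 17.6, 16.1 and 4.25 CPM (adjusted p = 0.000427), and CCl4 with chow, at 21.5 and 24.5 CPM (adjusted p = 0.0336). Afp, alpha-fetoprotein, rose from 4.75 and 4.66 CPM to 13.5, 7.48 and 34.4 CPM (1.96, edgeR adjusted p = 0.0248, lost without control 5 or 12). The OO libraries of day 0, numbers 1 and 2, had 7.07 and 7.51 CPM of Afp, close to library 19. H19, an imprinted noncoding RNA that skeletal muscle also holds, rose from 0.195 and 1.03 CPM to 4.85, 21.7 and 47.9 CPM (5.38, adjusted p = 0.0412; lost without any 1 of the libraries 5, 12, 19 and 20). Its highest value was in library 20, which held 607 CPM of muscle transcripts, and library 19 held 0.736 CPM of them; their part in the result was not tested. Tff3, a mucosal trefoil factor, fell from 8.39 and 10.6 CPM to 0.591, 0.613 and 1.18 CPM (-3.63, adjusted p = 7.86e-05).

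Annexin, S100 and cytoskeletal genes had 12 of 25 higher (1 without control 5, 7 without control 12, library 18 or 20). Anxa5, which binds phosphatidylserine, rose from 82.6 and 87.6 CPM to 181, 153 and 212 CPM (1.10 ± 0.17, edgeR adjusted p = 0.00222), and Tubb6, a tubulin, from 11.4 and 15.3 CPM to 79.1, 33.8 and 46.5 CPM (2.00, adjusted p = 0.00416; lost without control 5). Anxa2 rose from 16.3 and 30.8 CPM to 92.7, 60.9 and 132 CPM (2.02, adjusted p = 0.00762). Every double injury library exceeded both controls for these 3 genes.

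Calls from the erythroid, unfolded protein stress, death receptor and endothelial lists are given here, with stress hormone genes. Alas2, which starts haem synthesis in red cell precursors, fell from 109 and 123 CPM to 49.4, 35.5 and 38 CPM (-1.50, adjusted p = 0.000353), and was the 1 of 3 erythroid genes called. Herpud1, of protein quality control in the endoplasmic reticulum, fell from 451 and 265 CPM to 119, 224 and 157 CPM (-1.10, adjusted p = 0.0236). It was the 1 of 25 unfolded protein and stress genes called. Tnfrsf12a, the receptor for the cytokine TWEAK, rose from 3.9 and 4.82 CPM to 24, 10.9 and 22.3 CPM (2.13, adjusted p = 0.00281). It was the 1 of 15 death receptor and necroptosis genes called. These counts were near the 4.72% of all genes that fell and the 5.95% that rose. The stress hormone gene Fgf21 had 0.975 and 1.34 CPM in the controls and 1.43, 3.92 and 20.4 CPM in double injury, most of it in library 20, and did not pass (2.85, adjusted p = 0.102; DESeq2 called it, as did the fit without library 18). Gdf15, another stress hormone gene, had 5.33 and 22.2 CPM and 16.3, 12.3 and 16.9 CPM (0.15, adjusted p = 0.914). Rspo3, a Wnt enhancer of the central vein and 1 of the 2 endothelial genes that rose, went from 6.5 and 5.53 CPM to 9.28, 8.83 and 8.84 CPM (0.58, adjusted p = 0.0396). That call was lost without any 1 of the 5 libraries.

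Other genes were also among those with the widest change. Akr1c18, a steroid reductase, had 0 and 0.237 CPM in the controls and 14.7, 4.97 and 29.7 CPM in double injury (edgeR adjusted p = 0.00273; lost without control 5). Tcf24, a transcription factor gene, went from 0.195 and 0.158 CPM to 6.96, 3.92 and 10.1 CPM (5.22, adjusted p = 0.0024), Spink1, a trypsin inhibitor also made by injured liver, from 0.195 and 0.237 CPM to 4.94, 1.78 and 18.4 CPM (5.21, adjusted p = 0.00642; lost without control 5), and Cdhr2, a cadherin, from 0.26 and 0.158 CPM to 8.06, 2.94 and 9.09 CPM (4.92, adjusted p = 0.0013). Cdhr2 was above both single-injury arms (adjusted p = 0.00393 and 0.036). In the CCl4 libraries of day 0, numbers 3 and 4, Tcf24 was at 14 and 15 CPM, above every double injury library. Moxd1, a monooxygenase-like protein, fell from 144 and 97.1 CPM to 0.169, 0.184 and 0.0842 CPM (-9.54 ± 0.70, adjusted p = 9.48e-06) and was below both single-injury arms (adjusted p = 7.01e-05 and 0.0028). Slc22a28, a transporter, fell from 10.4 and 8.06 CPM to 0.169, 0.0613 and 0.0842 CPM (-6.24, adjusted p = 8.23e-06), and the pseudogene Serpina4-ps1 from 45 and 79.1 CPM to 0.506, 0.49 and 0.505 CPM (-6.93, adjusted p = 0.00026).

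Exocrine pancreas genes, which encode digestive enzymes, are set apart, since their transcripts were carried over in control 12. Of 35 genes written 34 were in the table and 23 were tested, and 9 of the 23 were called lower. Without control 12 the number was 0, and 18 when control 12 was the only control. Pnlip, pancreatic lipase, had 0 and 23.2 CPM in controls 5 and 12 and 0, 0 and 0 CPM in double injury. Cel, another lipase, had 0 and 22.4 CPM and 0.0422, 0 and 0 CPM, and Cela2a, an elastase, 0.585 and 25.4 CPM and 0.0422, 0.0613 and 0.168 CPM. Cpb1, Prss2, Cela3b, Pnliprp1 and 2210010C04Rik were at 0 in control 5 and at 7.35 CPM (Cela3b) to 16.0 CPM (Cpb1) in control 12. Ctrl, a chymotrypsin-like protease, stood at 0.52 and 9.48 CPM and 0.506, 0.797 and 0.253 CPM, with control 5 inside the double injury range. These 9 calls are among the 1576, and with the list taken out before scaling 1569 genes were called.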

How the data were processed

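RNA-seq libraries of polyadenylated RNA were made with a TruSeq kit, per the labels' protocols. The authors deposited raw read counts per gene, 1 table per library. GSNAP, mm10 and DESeq2 1.12.3 are named in the submitters' processing notes; the sources used here do not name the counting program, the annotation or strand use. Entries for reads given to no gene (5 per table) were left out; reads without a unique place were 18.1% to 28.8% of those listed, which bears on close copies. The 15 libraries in 7 groups were fitted together with edgeR 4.0.16 in R 4.3.3 (TMM, filterByExpr, quasi-likelihood F-test, Benjamini-Hochberg over 14778 genes, 8 residual degrees of freedom). Gene count totals ran from 10347844 to 28843258. On simulated data the fit found 50% of 2-fold and 87% of 4-fold changes, with 4.86% false calls (14450 genes, double injury against chow). That simulation changed 200 genes and gave both controls the same mean, with the spread fitted to these data. A shift of day or substudy between the controls was not simulated, so the 4.86% does not cover it.

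The compared groups, gene lists, named genes and motifs were chosen with earlier results of these data known. Named genes were up to 10 per direction with the widest change at a mean of at least 5 CPM, up to 2 per list with at least 3 calls, 30 set genes and the pancreas list; further list members were chosen after their values were seen. Gene positions are those of GENCODE M21 (mm10). Alternatives were RLE and library-size scaling, other filters, DESeq2 1.42.0, limma-voom 3.58.1, glmTreat at a fold of 1.5, fewer libraries in the fit, single controls, a substudy term, and each library left out in turn.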

Additional observations from a re-analysis of the deposited data

How the results depend on the processing

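No paired analysis was possible because the groups compared share no replicate numbers. Of 90 named calls 54 were kept in every alternative and 36 lost in at least 1. Against chow, 1576 calls (879 higher, 697 lower) became 472 (294, 178) with glmTreat, 414 (165, 249) with library 12 as only control, 994 (566, 428) with library 5 as only control, 1029 (431 lower) with a substudy term, 1004 (389 lower) without libraries 6 and 12, and 395 lower in the fit of day 20 and 23 libraries. Leaving out 1 library gave 403 to 1735 calls, 162 to 1034 higher and 241 to 701 lower, with the lowest of each without control 5. Of the calls 40.2% were higher without control 5, against 55.8%. Against OO with ethanol, 3546 calls (1883 higher, 1663 lower) became 1077 (860, 217) with glmTreat, 2319 (806 lower) with the compared libraries only, 911 lower with library-size scaling and 1085 lower in the day 20 and 23 fit; leaving out 1 library gave 2269 to 3862 calls and 971 to 2003 lower. Against CCl4 with chow, 185 calls (70 higher, 115 lower) became 390 (189, 201) with DESeq2, 71 (24, 47) with glmTreat, 99 (36, 63) with the compared libraries only and 69 (24, 45) in the day 20 and 23 fit; leaving out 1 library gave 55 to 147 calls, 9 to 57 higher and 43 to 90 lower. Log2 changes turned sign as follows. Acta2 was 0.37 with library 5 alone and 0.41 without libraries 6 and 12, and -0.55 to 0.42 with 1 library left out. Cdkn1a was 0.58 with limma-voom, 1.93 with library 5 alone, 1.96 without libraries 6 and 12, and -0.92 to 1.98 with 1 left out. Alb was -0.0589, Gdf15 -0.55 and Sox9 0.0625 with library 12 alone, with leave-out ranges of -0.0590 to 0.50, -0.55 to 1.56 and -0.37 to 0.0624. Casp4 was -0.0800 with a substudy term. Saa1 was 0.0322 with library 5 alone and 0.0699 without libraries 6 and 12, with a leave-out range of -1.26 to 0.0850. Among pancreas genes with library 5 alone, Cel was 1.72, Cela3b 1.75, Pnliprp1 2.53, Prss2 1.72 and Ctrl 0.0335 (0.0688 without libraries 6 and 12), with leave-out ranges of -10.32 to 1.74, -8.79 to 1.78, -9.25 to 2.56, -9.53 to 1.74 and -4.13 to 0.0873. Beyond what each alternative removes, the cause was not tested. The number of controls, 2 libraries of different days, limits the comparison with chow.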
